A study of Arabidopsis thaliana with 4 samples.

Results

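A set of 10 nuclear genes of Arabidopsis thaliana whose transcripts are, for most, known to accumulate in darkness and sugar shortage are described across the 4 libraries of the series, out of 33602 gene models. They were picked by locus: ASN1 (AT3G47340), SEN1 (AT4G35770), DIN10 (AT5G20250), AT3G15450, AT2G20670, BCAT2 (AT1G10070), DIN4 (AT3G13450), IVD (AT3G45300), MCCA (AT1G03090) and MCCB (AT4G34030). The list was proposed with the counts of these same libraries in view, above all the difference between replicate numbers, so that difference is given as a description with no test. The series compared the otp90 knock-out, line SM_3_29659 (2 libraries), with the wild type Col-0 (2 libraries). Both genotypes were soil-grown without treatment, at 18 to 21 °C under weak light (at most 90 µE per m2 and s), and aerial organs were taken at Boyes growth stage 1.09. A single mutant line stands for the knock-out, OTP90 itself was not analysed here, and what the replicate numbers mark (a plant, a sowing or a day) is not given in the labels.

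In leaves, sugar made by photosynthesis keeps a set of genes low. When light or sugar runs short, the kinase SnRK1 and bZIP transcription factors raise genes that release carbon and nitrogen from amino acids, cell wall sugars and proteins. ASN1 packs nitrogen into asparagine, a carbon-poor transport amino acid. The breakdown of leucine in mitochondria starts with a branched-chain aminotransferase such as BCAT2, passes through the branched-chain keto acid dehydrogenase (DIN4 encodes a beta subunit of its E1 component) and isovaleryl-CoA dehydrogenase (IVD), and continues with methylcrotonyl-CoA carboxylase, built from the MCCA and MCCB subunits. Electrons from IVD can enter the respiratory chain through the electron transfer flavoprotein.

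The libraries held 1374590 and 1750669 counts outside rRNA genes in otp90 replicates 1 and 2, against 2503502 and 1723267 in Col-0 replicates 1 and 2. Leaf markers summed to between 12410 and 20810 CPM (read counts scaled to library depth, with TMM factors) over the 4 libraries, while 5 flower markers summed to between 3.25 and 8.53 CPM and 5 seed markers to between 2.44 and 8.82 CPM. Root markers summed to 29.2 and 92.2 CPM in otp90 replicates 1 and 2, against 17.2 and 33.0 CPM in Col-0 replicates 1 and 2. Nearly all of that sum came from PYK10, the only one of the 5 that was tested, with 24.4 and 89.4 CPM in otp90 and 17.2 and 30.4 CPM in Col-0. PYK10 was lower in the replicate 1 library of each genotype, and the other 4 had at most 3 counts in a library. The rRNA genes took 7.69% and 4.96% of all counts in otp90 replicates 1 and 2, against 6.78% and 5.77% in Col-0 replicates 1 and 2, higher in replicate 1 in both genotypes. The part of these values in the differences between replicates was not tested. In bulk tissue, fewer cells of a type and less RNA per cell cannot be told apart.

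The 10 genes were all more abundant in the replicate 1 library than in the replicate 2 library of both genotypes. The gap had a median on the log2 scale of 6.55 in otp90 and 6.21 in Col-0 for the 5 dark and sugar markers. For the 5 leucine breakdown genes this median was 1.37 in otp90 and 1.80 in Col-0. The division was not set before the values were known, and DIN4, dark-inducible by name, counts among the leucine genes. Nothing is therefore read from the contrast between these groups. The dark and sugar markers ASN1, SEN1, AT3G15450, AT2G20670 and DIN10 together reached 1117 and 28.3 CPM in otp90 replicates 1 and 2, and 1119 and 52.2 CPM in Col-0 replicates 1 and 2. The leucine breakdown genes BCAT2, DIN4, IVD, MCCA and MCCB together reached 92.5 and 38.9 CPM in otp90 replicates 1 and 2, and 166 and 58.1 CPM in Col-0 replicates 1 and 2. Between otp90 and Col-0 none of the 10 passed the test.

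**Figure D1:**
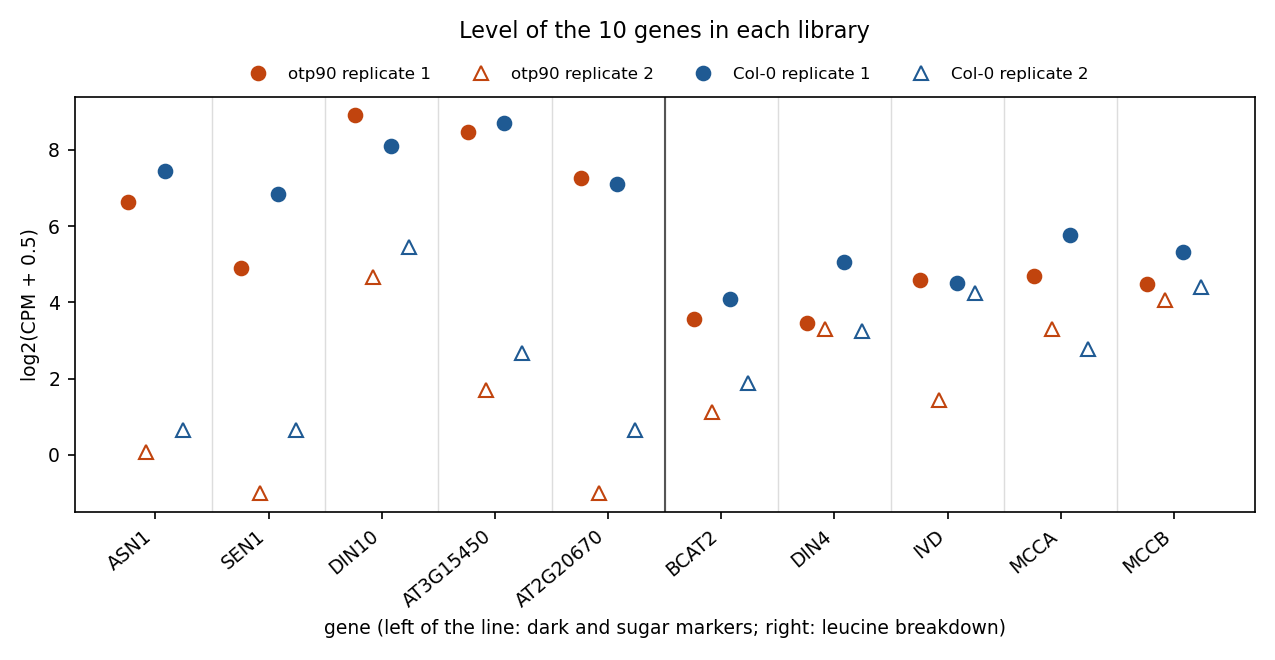
Level of each of the 10 genes in each library as log2(CPM + 0.5); filled circles are replicate 1 and open triangles replicate 2, in otp90 and then Col-0, with 1 point per library. In all 10 genes each circle lies above the triangle of its genotype. For ASN1, SEN1, AT3G15450, AT2G20670, DIN10, BCAT2 and MCCA each gap within a genotype exceeds each gap between same-numbered libraries of the genotypes.

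ASN1, the glutamine-dependent asparagine synthetase also known as DIN6, had 98.2 and 0.555 CPM in otp90 replicates 1 and 2, against 174 and 1.07 CPM in Col-0 replicates 1 and 2. These values rest on 121 and 1 counts in otp90 and on 433 and 2 counts in Col-0. Both replicate 1 libraries were high and both replicate 2 libraries were nearly empty, so the genotypes overlapped. Replicate 1 held 177 times the level of replicate 2 in otp90 (95% counting interval 31.1 to 7042) and 163 times in Col-0 (44.8 to 1349). All such intervals cover counting error only.

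SEN1, also called DIN1 and annotated as a rhodanese family protein, is a senescence-associated gene. It had 29.2 and 0 CPM in otp90 replicates 1 and 2, against 115 and 1.07 CPM in Col-0 replicates 1 and 2, from 36 and 0 counts in otp90 and 288 and 2 in Col-0. The replicate 1 libraries were again the high ones, and the genotypes overlapped. Replicate 1 was at least 17.5-fold higher than replicate 2 in otp90, taking 3 counts as the limit that a count of 0 in that library allows, and 108-fold higher in Col-0 (29.7 to 899). Within replicate 1, SEN1 stood at 0.253 of the Col-0 level in otp90 (0.174 to 0.359), the lowest such ratio among the 10 genes.

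AT3G15450, annotated as an aluminium-induced protein with YGL and LRDR motifs, had 356 and 2.78 CPM in otp90 replicates 1 and 2, against 419 and 5.86 CPM in Col-0 replicates 1 and 2. Its counts were 439 and 5 in otp90 and 1045 and 11 in Col-0. Both replicate 1 libraries were high and close to each other, with an otp90 to Col-0 ratio of 0.851 (0.759 to 0.952). Replicate 1 was 128-fold above replicate 2 in otp90 (54.6 to 397) and 71.5-fold in Col-0 (39.8 to 144).

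AT2G20670, annotated as a DUF506 protein and putative sugar phosphate exchanger, had 154 and 0 CPM in otp90 replicates 1 and 2, against 137 and 1.07 CPM in Col-0 replicates 1 and 2. The counts were 190 and 0 in otp90 and 342 and 2 in Col-0. In replicate 1 otp90 stood at 1.12 times Col-0, with an interval that includes 1 (0.937 to 1.35), and the genotypes overlapped. Replicate 1 was at least 92.6-fold higher in otp90, against the same limit of 3 counts, and 129-fold higher in Col-0 (35.3 to 1066).

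DIN10, annotated as a raffinose synthase family protein, had 479 and 24.99 CPM in otp90 replicates 1 and 2, against 274 and 43.2 CPM in Col-0 replicates 1 and 2. This gene kept a measurable level in all 4 libraries, with 590 and 45 counts in otp90 and 684 and 81 in Col-0. Replicate 1 was 19.2-fold above replicate 2 in otp90 (14.1 to 26.6) and 6.35-fold in Col-0 (5.04 to 8.10). The otp90 library was the higher one in replicate 1, at 1.75 times Col-0 (1.56 to 1.95), and the lower one in replicate 2, at 0.579 times Col-0 (0.393 to 0.843).

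Among the leucine breakdown genes, the median gap between replicates was smaller, and the library that stood out was not the same for every gene. BCAT2, which starts the pathway, had 11.4 and 1.67 CPM in otp90 replicates 1 and 2, against 16.4 and 3.20 CPM in Col-0 replicates 1 and 2. Replicate 1 was 6.82-fold higher in otp90 (1.90 to 37.0) and 5.14-fold higher in Col-0 (2.17 to 14.8). Of the 5 genes it had the most similar gap in both genotypes, but it rested on 14 and 3 counts in otp90 and 41 and 6 in Col-0.

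DIN4 had 10.6 and 9.44 CPM in otp90 replicates 1 and 2, against 32.9 and 9.06 CPM in Col-0 replicates 1 and 2. Col-0 replicate 1 stood above the other 3 libraries, which were level. Replicate 1 over replicate 2 gave 1.12 in otp90 (0.499 to 2.44), against 3.63 in Col-0 (2.13 to 6.53), and within replicate 1 otp90 stood at 0.321 of Col-0 (0.164 to 0.580).

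IVD showed the opposite arrangement, with 23.5 and 2.22 CPM in otp90 replicates 1 and 2, against 22.4 and 18.7 CPM in Col-0 replicates 1 and 2. A single library, otp90 replicate 2, was low, with 4 counts against 29 in otp90 replicate 1. The replicate ratio reached 10.6 in otp90 (3.72 to 41.5), against 1.20 in Col-0 (0.775 to 1.89).

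MCCA, the biotin-carrying alpha chain of methylcrotonyl-CoA carboxylase, had 25.2 and 9.44 CPM in otp90 replicates 1 and 2, against 54.5 and 6.40 CPM in Col-0 replicates 1 and 2. Col-0 replicate 1 was the high library, with a replicate ratio of 2.67 in otp90 (1.43 to 5.13), against 8.52 in Col-0 (4.72 to 16.9). MCCB, the partner subunit, had 21.9 and 16.1 CPM in otp90 replicates 1 and 2, against 39.7 and 20.8 CPM in Col-0 replicates 1 and 2. It varied least of the 10 on average, with replicate ratios of 1.36 in otp90 (0.775 to 2.38), against 1.91 in Col-0 (1.31 to 2.84). Over the 18 replicate ratios of the 10 genes that have an interval, 3 intervals include 1, those of DIN4 and MCCB in otp90 and of IVD in Col-0.

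**Figure D2:**
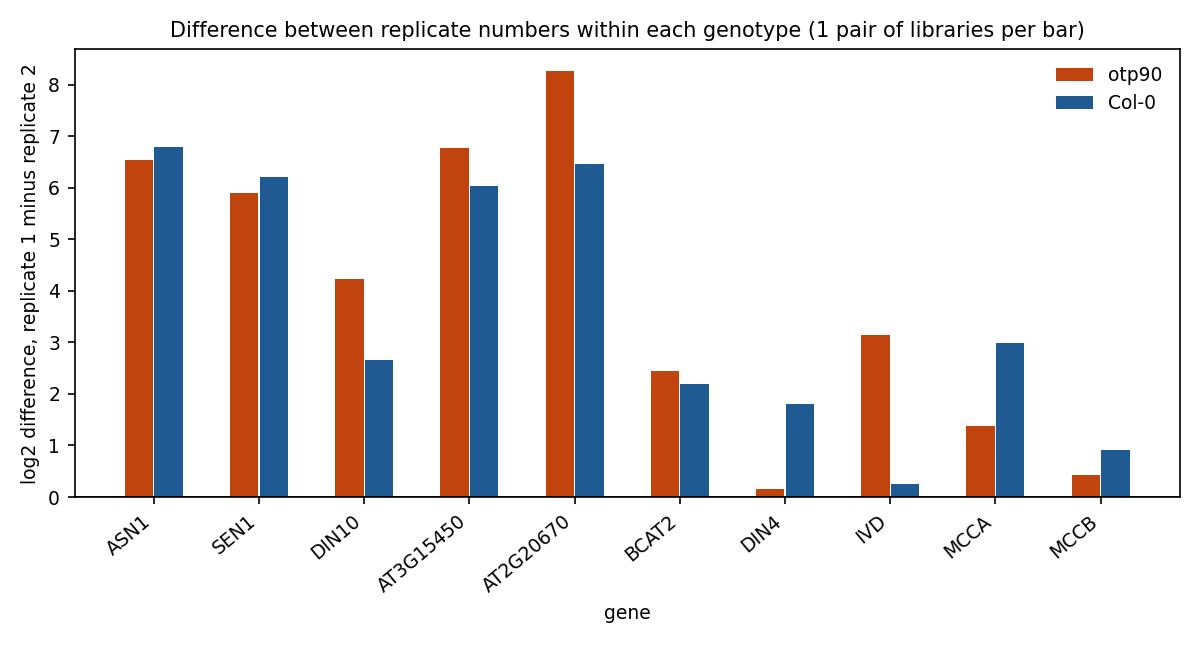
Difference between replicate 1 and replicate 2 on the log2(CPM + 0.5) scale for each of the 10 genes, in otp90 and then Col-0, with 1 pair of libraries per bar. The 5 dark and sugar markers on the left lie between 2.65 and 8.27 and the 5 leucine genes on the right between 0.15 and 3.14; the otp90 bars of SEN1 and AT2G20670 depend on the pseudocount, since otp90 replicate 2 held 0 counts of each.

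On the log2(CPM + 0.5) scale the difference between replicate 1 and replicate 2 had a median over the 10 genes of 3.69 in otp90 and 2.83 in Col-0, or 3.64 in otp90 with SEN1 and AT2G20670 at their bound. The same medians over the 11938 genes tested were -0.01 in otp90 and -0.01 in Col-0. A gap of at least 2-fold in both genotypes was seen in 7 of the 10 genes, beside 4.67% of all genes tested, and a gap of at least 8-fold in 4 of the 10, beside 0.477%. In otp90 alone 8 of the 10 passed 2-fold (15.6% of all genes tested) and in Col-0 alone 8 (14.1%), while 0 of the 10 were at least 2-fold lower in both genotypes (2.95%). Since the genes were proposed with this difference in view, nothing is read from these shares. Ordered by the mean difference over both genotypes, AT2G20670 was 1st, ASN1 was 2nd, AT3G15450 was 4th and SEN1 was 5th of 11938, while MCCB was 1994th. The places of AT2G20670 and SEN1 depend on the pseudocount, since otp90 replicate 2 held 0 counts of each, and AT2G20670 would fall behind ASN1 at its bound.

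Levels of different genes were compared as CPM per kilobase of gene model. In replicate 1 of otp90 the order ran from AT3G15450 (375) over DIN10 (174), AT2G20670 (123), ASN1 (44.5) and SEN1 (32.8) to the leucine genes, which lay between 6.92 (BCAT2) and 10.8 (MCCB). In replicate 1 of Col-0 AT3G15450 (441) led too, followed by SEN1 (130), AT2G20670 (110), DIN10 (99.6) and ASN1 (78.7), with the leucine genes between 7.78 (IVD) and 24.2 (DIN4). In replicate 2 of both genotypes the order was another one, led by DIN10 (9.08 in otp90 and 15.7 in Col-0), MCCB (7.92 and 10.2) and DIN4 (6.94 and 6.66), while ASN1 was at 0.252 in otp90 and 0.483 in Col-0. In neither genotype did any of the 9 neighbouring pairs in the order of mean levels lie further apart than the larger SD of the pair.

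All 10 genes passed the filter on low counts. For 4 of them (ASN1, SEN1, BCAT2 and AT2G20670) the replicate 1 libraries alone reached the filter's level, and 4 (DIN10, MCCA, MCCB and DIN4) reached it in all 4 libraries. Of the 10, 6 overlap a gene on the other strand in the TAIR10.1 annotation (ASN1, DIN10, MCCA, DIN4, BCAT2 and AT3G15450). For BCAT2 the partner AT1G10090 had 14 and 30 counts in otp90 replicates 1 and 2, against 114 and 46 counts in Col-0 replicates 1 and 2, as many as BCAT2 or more, so BCAT2 values are uncertain if counting ignored strand. AT3G15460, the partner of AT3G15450, had 9 counts in otp90 replicate 2 and 10 in Col-0 replicate 2, where AT3G15450 had 5 and 11, so the same limit bears on its 128-fold and 71.5-fold ratios. AT1G03100, the partner of MCCA, had 7 counts in otp90 replicate 2 and 4 in Col-0 replicate 2, where MCCA had 17 and 12. The partners of DIN10, DIN4 and ASN1 had at most 6 counts in a library.

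The comparison the design states is otp90 against Col-0, and in it no gene of the list was called. By edgeR's quasi-likelihood test with Benjamini-Hochberg adjustment over 11938 genes, 0 of the 10 genes passed an adjusted p of 0.05, beside 0% of all genes tested, and each of the 10 had an adjusted p of 0.9998. An unadjusted p under 0.05 was reached by 168 genes (1.41%) in edgeR and by 96 in DESeq2, and 0 of the 10 were among those of edgeR. The log2 fold change, otp90 over Col-0, was negative in 8 of the 10, beside 50.8% of all genes tested, with a median of -0.70 over the 10, beside -0.01 over all genes tested.

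**Figure D3:**
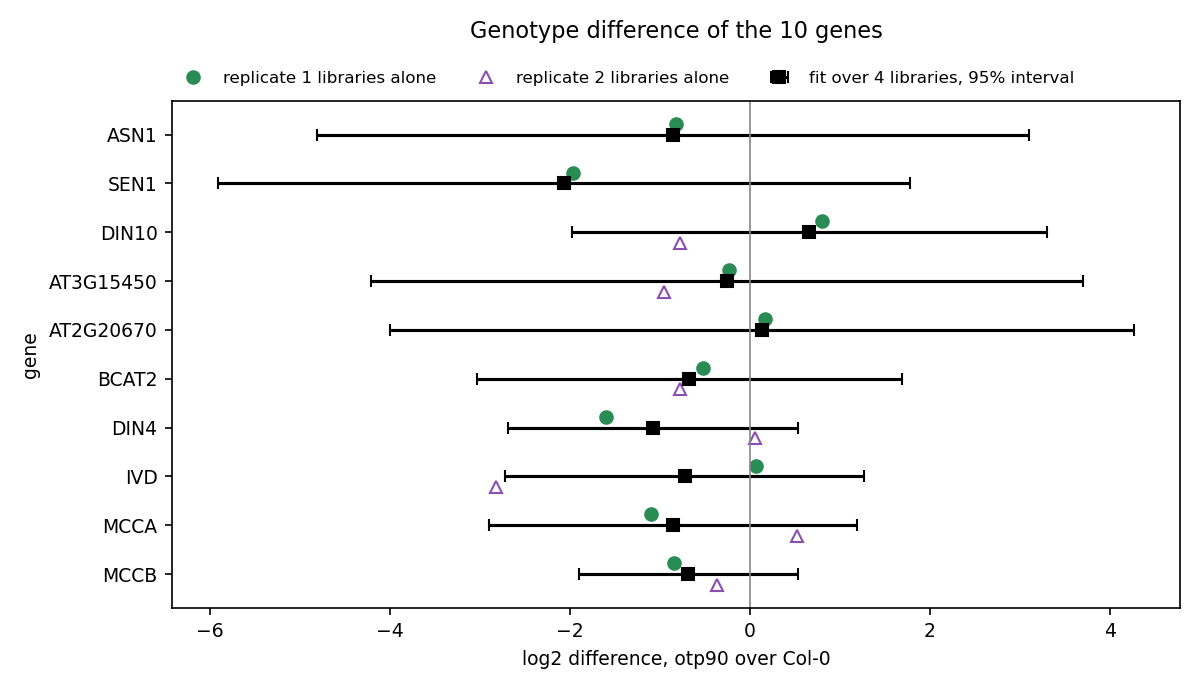
Log2 difference of otp90 over Col-0 for the 10 genes; squares with bars are the edgeR estimate over 4 libraries with its 95% interval, circles the replicate 1 libraries alone and open triangles the replicate 2 libraries alone. Every interval includes 0, and triangles are left out for ASN1, SEN1 and AT2G20670, which had at most 2 counts in each replicate 2 library.

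The libraries of a genotype lay far apart for most of the genes, and the intervals were wide. ASN1 averaged 49.4 ± 69.1 CPM in otp90, against 87.3 ± 122 CPM in Col-0 (SD, n = 2 in each genotype). Its log2 fold change was -0.85 (95% interval -4.80 to 3.11). SEN1 averaged 14.6 ± 20.7 CPM in otp90, against 58.3 ± 80.9 CPM in Col-0, with an estimate of -2.06 on that scale (interval -5.91 to 1.78), the most negative of the 10. The narrowest interval was that of MCCB, at 19.0 ± 4.11 CPM in otp90, against 30.2 ± 13.4 CPM in Col-0, with an estimate of -0.68 (interval -1.89 to 0.53). None of these differences exceeded the spread between replicates.

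DIN4 averaged 9.997 ± 0.786 CPM in otp90, against 20.97 ± 16.8 CPM in Col-0, and its log2 fold change was -1.08 (SE 0.71). MCCA averaged 17.3 ± 11.1 CPM in otp90, against 30.5 ± 34.0 CPM in Col-0, with -0.85 (SE 0.90). In both genes Col-0 replicate 1 was the high library. The log2 fold change of IVD was -0.72 (SE 0.88), that of BCAT2 -0.67 (SE 1.04), that of AT3G15450 -0.25 (SE 1.74), that of AT2G20670 0.14 (SE 1.81) and that of DIN10 0.66 (SE 1.16).

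Within replicate 1, the otp90 to Col-0 ratio was below 1 in 7 genes, from 0.253 for SEN1 to 0.851 for AT3G15450, and above 1 for IVD (1.05), AT2G20670 (1.12) and DIN10 (1.75). Within replicate 2, 7 genes had enough counts for a ratio. It was below 1 in 5 of these, from 0.119 for IVD to 0.775 for MCCB, and above 1 for DIN4 (1.04) and MCCA (1.48). In 4 of the 7 genes (DIN10, MCCA, IVD and DIN4) the direction was not the same in the 2 replicates. In no gene of the 10 were both otp90 libraries above, or both below, the pair of Col-0 libraries, beside 13.5% of all genes tested with otp90 below and 12.4% with otp90 above.

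For every gene of the list but MCCB, the log2 fold change took both signs over the fits with 1 library left out. These fold changes are given here as sizes only. The genes were proposed with the gap between replicate numbers in view. Each of these fits sets a lone library of 1 replicate number against a pair with both, so that gap enters the genotype contrast. The fits therefore cannot decide whether the 10 genes differ between genotypes. Without otp90 replicate 1, edgeR called 4 of the 10 genes as lower in otp90, beside 24 called genes of 13668 tested (0.176%): ASN1 (log2 fold change -7.14, adjusted p = 2.51e-05), AT3G15450 (-6.21, adjusted p = 5.1e-05), SEN1 (adjusted p = 1.11e-05) and AT2G20670 (adjusted p = 9.11e-06). SEN1 and AT2G20670 had 0 counts in the remaining otp90 library, so their fitted sizes depend on the prior count of the fit. Without Col-0 replicate 1, the edgeR fit called 3 as higher in otp90, beside 30 called genes of 13433 (0.223%), with AT2G20670 at 6.07 (adjusted p = 2.99e-06), ASN1 at 5.42 (adjusted p = 0.000114) and AT3G15450 at 4.92 (adjusted p = 3.94e-06). Without Col-0 replicate 2, SEN1 alone among the 10 was called, at -3.04 (adjusted p = 0.0014 by edgeR), beside 33 called genes of 13334 (0.247%). Without otp90 replicate 2, the median over the 10 was 0.19. In each such fit the lone library of a genotype is assumed to vary like the pair of the other, and it carries a single replicate number.

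The 10 genes together took 0.108% of non-rRNA counts in otp90 replicate 1 (95% Wilson interval 0.103 to 0.114) and 0.00691% in otp90 replicate 2 (0.00579 to 0.00826). They took 0.128% in Col-0 replicate 1 (0.124 to 0.133) and 0.0120% in Col-0 replicate 2 (0.0105 to 0.0138). The mean share was 0.0577% ± 0.0718 in otp90, against 0.0700% ± 0.0821 in Col-0 (SD, n = 2 in each genotype), a difference of -0.0124 percentage points. An exact two-sided permutation test gave p = 0.667, where 2 against 2 libraries cannot go below 0.33. The difference was -0.0197 points within replicate 1 and -0.0051 within replicate 2, and it turned positive when otp90 replicate 2 (0.0384) or Col-0 replicate 1 (0.0456) was left out.

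The list of other genes of branched-chain and related amino acid breakdown, which also holds paralogs of BCAT2, gave 0 genotype calls in 21 tested of 23 listed, with 10 positive and 11 negative log2 fold changes and a median of -0.04. Between replicates their median difference was 0.62 in otp90 and 0.55 in Col-0. Of the 21, 2 were at least 2-fold higher in replicate 1 in both genotypes, ETFQO and the proline dehydrogenase gene ERD5, beside 4.67% of all genes tested. E1A2 (AT5G09300), for an E1 alpha subunit, was at least 2-fold lower in both, beside 2.95% of all genes tested. It had 2 and 11 counts in otp90 replicates 1 and 2, against 0 and 12 in Col-0 replicates 1 and 2. ERD5 had 50.3 and 12.8 CPM in otp90 replicates 1 and 2, against 97.8 and 23.98 CPM in Col-0 replicates 1 and 2.

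Partners of the leucine genes did not share 1 pattern. The E1 alpha subunit gene AT1G21400, partner of DIN4, had 21.1 and 12.8 CPM in otp90 replicates 1 and 2, against 36.1 and 8.53 CPM in Col-0 replicates 1 and 2. As for DIN4, Col-0 replicate 1 was its highest library. The paralog of DIN4 for the E1 beta subunit, AT1G55510, had 10.6 and 4.998 CPM in otp90 and 4.81 and 5.33 CPM in Col-0, highest in otp90 replicate 1. DIN3 (AT3G06850), the E2 subunit, had 8.93 and 0.555 CPM in otp90 and 8.02 and 5.33 CPM in Col-0, with otp90 replicate 2 low as for IVD. That library held 1 count of DIN3.

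HML1 (AT2G26800), the hydroxymethylglutaryl-CoA lyase that ends leucine breakdown, had 14.6 and 5.55 CPM in otp90 replicates 1 and 2, against 16.4 and 10.7 CPM in Col-0 replicates 1 and 2. Of the paralogs of BCAT2, the mitochondrial BCAT1 had 9.74 and 6.11 CPM in otp90 and 8.02 and 1.60 CPM in Col-0. The plastid BCAT3, which acts in synthesis rather than breakdown, had 65.7 and 84.4 CPM in otp90 and 45.7 and 75.2 CPM in Col-0. BCAT3 was thus the one aminotransferase of these with its higher value in replicate 2 of both genotypes, with replicate ratios of 0.779 in otp90 (0.587 to 1.03, which includes 1), against 0.608 in Col-0 (0.471 to 0.784). The lipoamide dehydrogenase genes LPD1 and LPD2, shared with other mitochondrial complexes, were the other members of this list with the highest levels per kilobase, and their replicate differences were 0.07 in otp90 and -2.11 in Col-0 for LPD1 and 0.01 and 0.48 for LPD2.

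**Figure D4:**
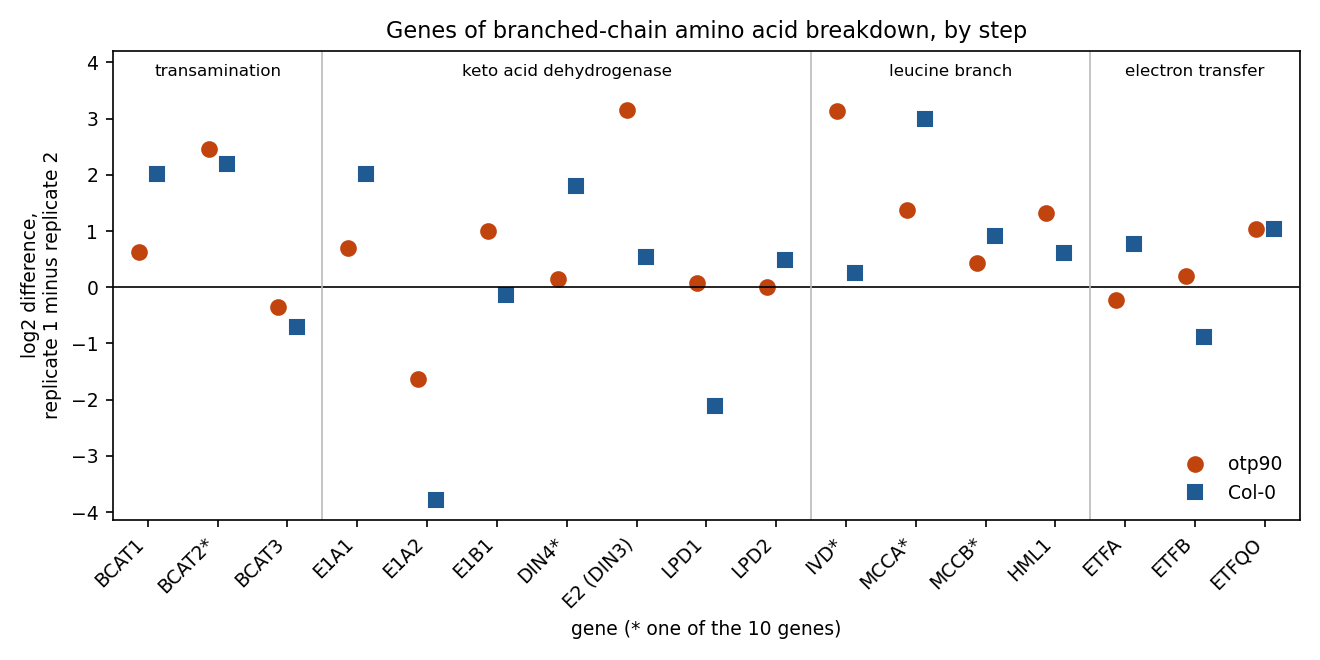
Difference between replicate 1 and replicate 2 on the log2(CPM + 0.5) scale for genes of branched-chain amino acid breakdown by step, in otp90 (circles) and Col-0 (squares), with 1 pair of libraries per point. Among the starred genes of the list, IVD is high in otp90 alone (3.14 in otp90 and 0.26 in Col-0) and DIN4 in Col-0 alone (0.15 and 1.80), and BCAT3 lies below 0 in both genotypes; the Col-0 point of E1A2 depends on the pseudocount, since Col-0 replicate 1 held 0 counts.

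Neither paralog of ASN1 had its pattern. ASN2 had 194 and 204 CPM in otp90 replicates 1 and 2, against 95.01 and 153 CPM in Col-0 replicates 1 and 2, and ASN3 had 5.68 and 21.7 CPM in otp90, against 5.61 and 8.53 CPM in Col-0. The replicate ratio of ASN2 was 0.952 for otp90 (0.805 to 1.12) and 0.621 for Col-0 (0.521 to 0.740), and that of ASN3 was 0.262 for otp90 (0.0990 to 0.593) and 0.658 for Col-0 (0.297 to 1.44). All 4 ratios were below 1, but the intervals of ASN2 in otp90 and ASN3 in Col-0 include 1. Of the 8 genes for asparagine and glutamine synthesis other than ASN1, all tested, 0 were called between genotypes, with 6 positive and 2 negative log2 fold changes and a median of 0.46. None of the 8 reached a 2-fold difference between replicates in the same direction in both genotypes, beside 4.67% (higher in replicate 1) and 2.95% (lower) of all genes tested. The most abundant per kilobase were GLN2, the plastid glutamine synthetase (log2 fold change 0.45, SE 0.53), GLU1, ferredoxin-dependent glutamate synthase (0.47, SE 0.53), and GLN1-2, a cytosolic glutamine synthetase (0.72, SE 0.50).

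Among 11 other sugar-repressed genes, 8 were tested and 0 called between genotypes, with 4 positive and 4 negative values and a median of -0.32. Of these 8, 7 were at least 2-fold higher in replicate 1 in both genotypes, beside 4.67% of all genes tested. All lists were chosen with earlier results of these data known, so nothing is read from this share. The cell wall gene BGAL1, a beta-galactosidase, had 1071 and 193 CPM in otp90 replicates 1 and 2, against 898 and 314 CPM in Col-0 replicates 1 and 2. The dormancy-associated gene DRM2 had 157 and 7.77 CPM in otp90, against 313 and 25.1 CPM in Col-0. FLZ6, which encodes a zinc finger protein that binds SnRK1, went the other way, with 225 and 535 CPM in otp90 and 59.3 and 400 CPM in Col-0.

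SnRK1 subunit genes were tested in 6 of 6 cases with 0 genotype calls, 3 positive and 3 negative values and a median of -0.01. KINBETA1 (AT5G21170), a regulatory beta subunit, was the one of the 6 at least 2-fold higher in replicate 1 in both genotypes, beside 4.67% of all genes tested. None was at least 2-fold lower in both. KINBETA1 had 30.03 and 2.78 CPM in otp90 and 31.3 and 3.20 CPM in Col-0. KINBETA1 was named after its values were seen. The catalytic subunit gene KIN10 had 41.4 and 41.1 CPM in otp90 and 56.1 and 21.3 CPM in Col-0, and SNF4 and KINBETA2 had higher values in replicate 2 of each genotype, clear of counting error only for SNF4 in Col-0, with differences of -0.55 and -0.21 in otp90 and -1.24 and -0.49 in Col-0. Of the remaining dark-inducible genes, 2 of 4 were tested, DIN3 and the phosphomannose isomerase gene DIN9, and neither was called. Of these, 0 were at least 2-fold higher in replicate 1 in both genotypes, beside 4.67% of all genes tested. DIN9 had 8.12 and 7.22 CPM in otp90 and 1.60 and 6.40 CPM in Col-0.

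Sugar-induced genes gave 0 genotype calls in 5 tested of 9, with 4 positive and 1 negative and a median of 0.70. APL3, a large subunit of the enzyme that makes ADP-glucose for starch, had 15.4 and 44.98 CPM in otp90 replicates 1 and 2, against 5.61 and 23.5 CPM in Col-0 replicates 1 and 2, higher in replicate 2 of each genotype. The nitrate reductase gene NIA1 was instead higher in replicate 1, with 196 and 28.9 CPM in otp90 and 256 and 38.4 CPM in Col-0, while NIA2 had 2926 and 1554 CPM in otp90 and 1339 and 1426 CPM in Col-0. This list thus held genes of both directions. Of the 5, 2 were at least 2-fold lower in replicate 1 in both genotypes, APL3 and TPS5, beside 2.95% of all genes tested. The number at least 2-fold higher in both was 1, NIA1, beside 4.67%.

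Autophagy genes, which serve the recycling of cell contents in starvation, gave 0 calls in 12 tested of 18, with 5 positive and 7 negative and a median of -0.10. Between replicates their median difference was 0.26 in otp90 and 0.88 in Col-0. Of the 12, 1 was at least 2-fold higher in replicate 1 in both genotypes, beside 4.67% of all genes tested. This was ATG8E, with 25.2 and 7.22 CPM in otp90 and 21.2 and 1.60 CPM in Col-0. NBR1, a cargo receptor, and ATG8F differed by 0.19 and 0.67 in otp90 and by 1.04 and 1.53 in Col-0. Dark senescence and chlorophyll breakdown genes gave 0 calls in 8 tested of 11, with 4 positive and 4 negative and a median of -0.01. Of these 8, 3 were at least 2-fold higher in replicate 1 in both genotypes, beside 4.67% of all genes tested. Among them was PIF5, a phytochrome-interacting factor, with 90.9 and 26.1 CPM in otp90 and 95.8 and 16.5 CPM in Col-0. EIN3 differed by 0.57 in otp90 and 0.43 in Col-0, and the chlorophyll b reductase gene NYC1 by -0.88 and -1.23.

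**Figure D5:**
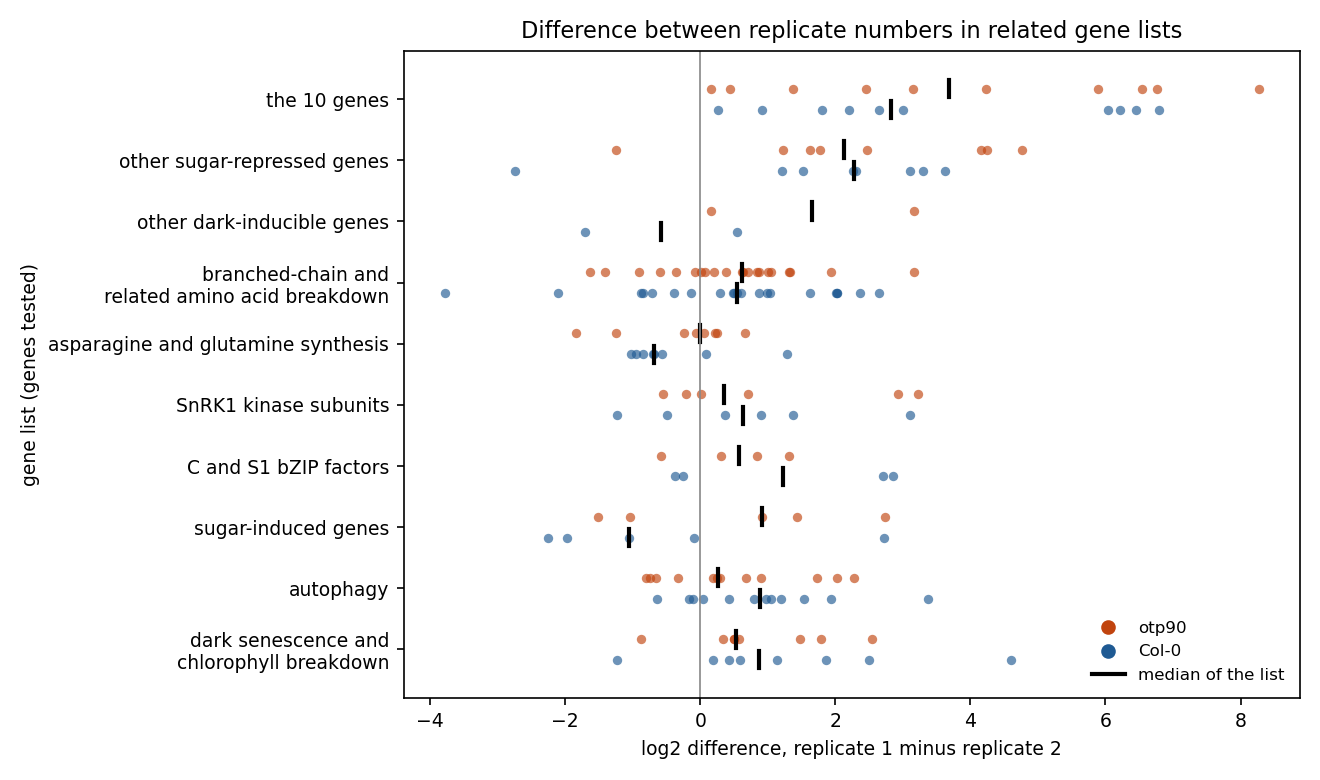
Difference between replicate 1 and replicate 2 on the log2(CPM + 0.5) scale for each tested gene of the list and of related lists, in otp90 (upper row of each list) and Col-0 (lower row), with the list median as a black bar. The 10 genes have medians of 3.69 in otp90 and 2.83 in Col-0, the other sugar-repressed genes 2.12 and 2.28, and asparagine and glutamine synthesis genes -0.01 and -0.69. All lists were chosen with earlier results of these data known.

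Among 11669 other genes with a mean of at least 5 CPM, the 10 whose centred log2(CPM + 0.5) profile over the 4 libraries lay nearest to the median profile of the list were MYBL2, TPS9, ATCTH (AT2G25900), TPS8, LHB1B2, AKINBETA1 (the KINBETA1 gene above), WES1, STP1, AT1G32700 and LHCB2.3. Their Euclidean distances ran from 0.415 to 0.672 log2 units, and those of the 10 genes themselves from 0.686 (DIN10) to 4.15 (AT2G20670). The nearest genes were picked by this distance, so their closeness and their gap between replicates followed from the choice. In replicate 2 of otp90 and Col-0, MYBL2 had 1 and 2 counts, WES1 2 and 3 and AT1G32700 1 and 4. Profiles of these genes depend on the pseudocount. STP1, a sugar transporter gene also on the sugar-repressed list, had 246 and 13.3 CPM in otp90 replicates 1 and 2, against 173 and 19.7 CPM in Col-0 replicates 1 and 2. TPS8, of the trehalose phosphate synthase family, had 138 and 14.4 CPM in otp90, against 143 and 20.3 CPM in Col-0. LHB1B2 and LHCB2.3 are light-harvesting genes with near-identical copies, and their counts are uncertain.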

How the data were processed

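Single-end, stranded, rRNA-depleted Ion Proton libraries of total RNA were sequenced, per the labels' protocols. Per the file headers, the authors counted reads on gene models with sam2pkm and dropped reads whose best alignments tied, so the deposited unit is the raw count. The submitters' processing notes name the build TAIR10. The aligner, and whether strand was used in counting, are not given in the sources used here.

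Names came from the TAIR10.1 annotation, which matched 32835 of 33602 gene models. It was also used to find which genes overlap. No coordinates or sequences are printed, because its build differs from that of the files. Counts were fitted with edgeR 4.0.16 in R 4.3.3, after leaving out 15 rRNA gene models, with filterByExpr (11938 genes kept), TMM scaling and the two-sided quasi-likelihood test of genotype without a replicate block, Benjamini-Hochberg adjusted over all genes and called at 0.05. The standard error came from the fold change and the F statistic. The test was tried on simulated counts with genotype changes and no difference between replicate numbers, a setting unlike these libraries. Replicate differences used log2(CPM + 0.5) and were not tested. Count ratios have exact binomial 95% intervals, and both they and the limit of 3 counts cover counting error only. Depth was 1489112 to 2685718 counted reads per library, and tied reads removed were 79.9% to 87.0% of mapped reads.

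Alternatives were DESeq2 1.42.0, its size factors, no filter, rRNA genes kept, a replicate block and leaving out each library. The 10 genes and all lists were chosen with earlier results of these data known. Named are the 10 genes, their paralogs and partners, up to 3 tested genes of each list with the highest level per kilobase, and the 10 nearest profiles. ETFQO, ERD5, E1A2, KINBETA1, TPS5 and the genes in the additional observations were named after their values were seen. Replicates of a genotype differed by more than sampling noise (chi-square per degree of freedom 14.4 in otp90 and 23.7 in Col-0). Whether they were separate plants is not stated in the labels, so p-values measure only how these libraries vary, which may be technical variation.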

Additional observations from a re-analysis of the deposited data

How the results depend on the processing

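The count of called genes (0) and of called genes among the 10 (0) was the same with DESeq2, DESeq2 size factors, no filter, rRNA genes kept and the replicate block. With 1 library left out the called genes ranged from 0 to 33, those among the 10 from 0 to 4, the median log2 fold change of the 10 from -2.90 to 1.98 (1.98 without Col-0 replicate 1), and the difference in summed share from -0.0704 to 0.0456 percentage points. Single genes ranged over the same 4 fits from -7.14 to 5.42 (ASN1), -9.91 to 3.65 (SEN1), -2.65 to 2.55 (DIN10), -1.68 to 1.42 (MCCA), -1.06 to -0.12 (MCCB), -3.16 to 0.22 (IVD), -1.70 to 0.15 (DIN4), -2.52 to 0.97 (BCAT2), -6.21 to 4.92 (AT3G15450) and -10.2 to 6.07 (AT2G20670). The lowest values of SEN1 and AT2G20670 rest on an otp90 library with 0 counts and depend on the fit's prior count. MCCB alone kept its sign in all 4. The cause was not tested.

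With the replicate block the median of the 10 was -0.64, AT2G20670 turned to -0.11, DIN10 moved to 0.06, MCCA to -0.40, IVD to -1.20 and AT3G15450 to -0.49. The share difference was -0.0124, with p = 0.5 by the exact permutation test within replicate numbers. That test cannot go below 0.5 with 1 library of each genotype per replicate number, so it cannot decide whether the share differs. Same-numbered libraries deviated together (correlation 0.217 across 11938 genes, which are not independent), but the numbers are not stated to pair samples. The median replicate difference of 2.88 was 3.69 in otp90 alone and between 2.69 and 2.95 under the other settings. With library totals the median of all genes moved to -0.18 in this difference and to -0.12 between genotypes. Counts of 0 to 6 in the replicate 2 libraries limit the ratios of ASN1, SEN1, BCAT2 and AT2G20670. In otp90 they also limit those of IVD (4 counts) and AT3G15450 (5 counts).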

Other observations

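Of the C and S1 bZIP genes, whose products act downstream of SnRK1, 4 of 9 were tested and 0 called. Of the 4, 1 was at least 2-fold higher in replicate 1 in both genotypes, beside 4.67% of all genes tested. This was BZIP63, with 18.7 and 7.22 CPM in otp90 replicates 1 and 2, against 18.4 and 2.13 CPM in Col-0 replicates 1 and 2. Its value in Col-0 replicate 2 rests on 4 counts. The replicate differences of BZIP25, BZIP10 and BZIP9 were 0.83, 0.31 and -0.59 in otp90. In Col-0 they were -0.25, -0.37 and 2.71, each of opposite sign to otp90. The most abundant per kilobase were BZIP25 (log2 fold change 0.13, SE 0.49), BZIP10 (-0.75, SE 0.53) and BZIP9 (-0.70, SE 0.89). The S1 genes BZIP1, BZIP2, BZIP11, BZIP44 and BZIP53 were at 0 counts in all 4 libraries. For each of these 5 the files hold a second gene model of exactly the same length at a neighbouring locus, also at 0 counts, for example BZIP11 (AT4G34590) and AT4G34588 with 1370 bases each. The authors removed tied reads ahead of counting, and the part of this step in these zeros was not tested, so the 0 counts do not measure expression.

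ATG13A encodes a subunit of the autophagy-initiating kinase complex and was 1 of 12 autophagy genes tested. It was the one gene of all related lists with an unadjusted p under 0.05 between genotypes by edgeR. Over all genes tested that share was 1.41%, and ATG13A was picked by this p, so nothing is read from it. ATG13A had 2.44 and 4.44 CPM in otp90 replicates 1 and 2, against 15.2 and 16.5 CPM in Col-0 replicates 1 and 2. Both otp90 libraries thus lay below both Col-0 libraries, as in 13.5% of all genes tested. Its log2 fold change was -2.15 (SE 0.70) and its adjusted p by edgeR 0.9998, so it did not pass. It rests on 3 and 8 counts in otp90 and 38 and 31 in Col-0.

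The share of each gene in the summed counts of the 10 differed between libraries. DIN10 held 39.6% and 37.2% in otp90 replicates 1 and 2, against 21.3% and 39.1% in Col-0 replicates 1 and 2. AT3G15450 held 29.5% and 4.13% in otp90, against 32.6% and 5.31% in Col-0, a smaller share in replicate 2 of each genotype. MCCB held 1.81% and 23.97% in otp90, against 3.09% and 18.8% in Col-0, a larger share in replicate 2 of each genotype, where its CPM was lower.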
